A study of Mus musculus with 6 samples.

Results

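The MAP kinase cascade passes a signal down ordered tiers of protein kinases, and some of the dual-specificity phosphatases switch its last kinases off again. The genes described here are those whose annotated symbol is Mapk, Map2k, Map3k, Map4k, Mapkapk or Dusp followed by a number, taken from probes with 1 gene symbol. They numbered 65 of the 19935 genes measured (69 of 21780 such probes): 3 Map4k, 18 Map3k, 6 Map2k, 11 Mapk, 3 Mapkapk and 24 Dusp genes. All samples were cultured peritoneal macrophages, the resident phagocytes of the abdomen, from the inbred mouse strain C57BL/6, and the labels give no age or sex. They had been exposed for 24 h to poly I:C at 2 ug/mL, a synthetic double-stranded RNA and ligand of TLR3, or for 24 h to PAM at 1 ug/mL, a lipopeptide ligand of TLR2, or were controls that received neither ligand. Each of the 3 groups held 2 arrays. The labels name the PAM compound differently for its 2 samples and give no culture time for the controls. They do not state whether the pairs of samples are different animals or cultures; all p-values therefore rest on the spread within these pairs, which may be technical.

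In the textbook scheme, MAP4 kinases and receptor complexes activate MAP3 kinases, these activate MAP2 kinases, and these in turn activate the ERK, JNK and p38 MAP kinases. In macrophages Toll-like receptors engage the cascade mainly through the MAP3 kinases TAK1 and Tpl2, and the p38 substrate kinase MK2 stabilises cytokine transcripts. Of the dual-specificity phosphatases, 10 are the MAP kinase phosphatases proper. These remove phosphate from threonine and tyrosine of activated MAP kinases, and several are induced by the pathway that they end. Not all of the other Dusp genes encode phosphatases of MAP kinases. Transcript levels, as measured here, do not show whether a kinase is active.

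The deposited values were log2 values centred so that every probe has a median of 0 across the 6 arrays. A value of 0 is therefore the middle of that gene's own arrays, and one gene's level cannot be set against another's. Folds assume a log base of 2, which the labels do not state. Differences are given as log2 difference ± SE with n = 2 arrays per group. Adjusted p-values come from limma, fitted over all genes and corrected for each comparison separately (Benjamini-Hochberg), with a threshold of 0.05. Only 2 arrays per group limit the precision, and the median SE over all genes was 0.07. The number steps of the single-precision values show which probes had uncentred values of at least 8 throughout, the mark of a bright probe. This held for 30 of the 65 members and for 5800 of all 19935 genes.

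With poly I:C, 12 members rose and 19 fell against control, and with PAM 8 rose and 14 fell. The largest changes with poly I:C were those of the phosphatase genes Dusp28, Dusp1 and Dusp14, which rose, and of Map4k1 and Dusp6, which fell. With PAM, the phosphatase genes Dusp4 and Dusp16, the stress kinase gene Map3k5 and Mapkapk2 rose, and Map4k1, Map3k1 and Map3k20 fell. Between the ligands, poly I:C arrays were above PAM arrays for 12 members and below them for 12. Over all genes, 30.4% passed with poly I:C against control (12.1% higher and 18.2% lower), 25% with PAM against control (11% higher and 14% lower) and 28.7% between the ligands (12.9% higher and 15.8% lower with poly I:C). The members' shares were 47.7%, 33.8% and 36.9%. Bright genes passed more often than others. Among genes at 8 or above on all arrays, 55.9% passed with poly I:C, 46.9% with PAM and 54.6% between the ligands, and the 30 members of that class stood at 53.3%, 46.7% and 43.3%, near or below that background. The other 35 members stood above theirs: 42.9% passed with poly I:C, 22.9% with PAM and 31.4% between the ligands, beside 19.9%, 16% and 18.1% of the 14135 genes not in that class. Those 14135 genes take in every lower level and were not matched to the 35 members by level, so the excess may reflect level alone. A change of at least 2-fold was seen in 5 of the 65 members with poly I:C, 7 with PAM and 7 between the ligands. Beside them stood 960, 838 and 991 of all 19935 genes (4.82%, 4.2% and 4.97%). Among the 30 bright members the numbers were 2, 5 and 4, beside 469, 412 and 475 of the 5800 bright genes. The median difference of the members was -0.07 with poly I:C and 0.0016 with PAM, against 0.0081 and -0.0015 over all genes.

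**Figure D1:**
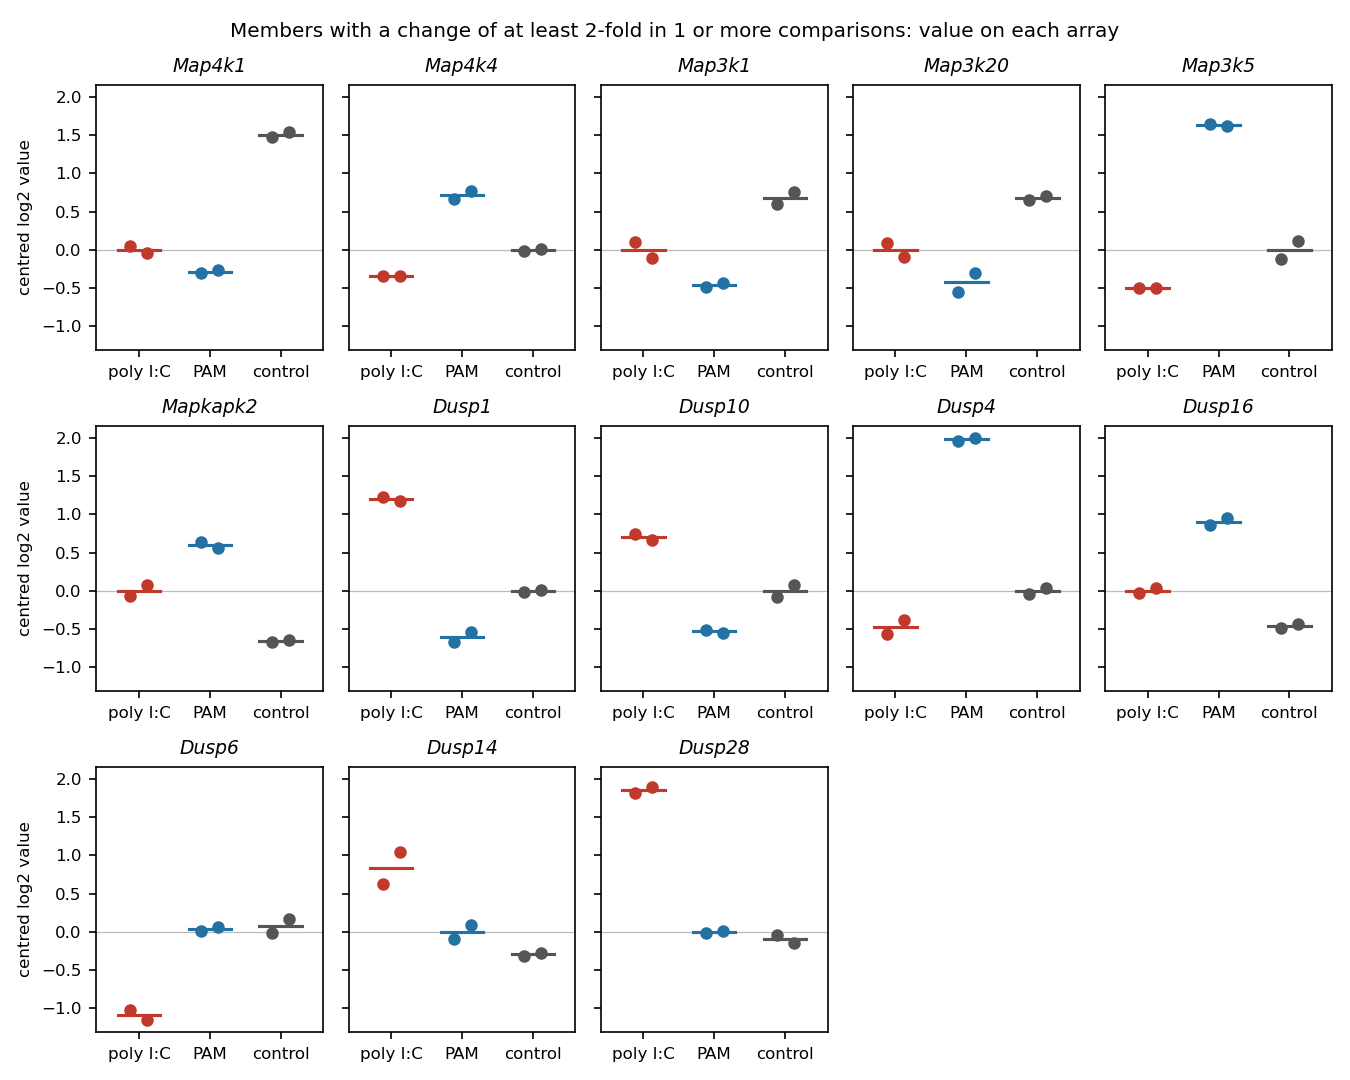
Centred log2 value on each of the 6 arrays (points) and group mean (line) for the 13 members that changed at least 2-fold past the threshold in 1 or more of the 3 comparisons, with poly I:C in red, PAM in blue and control in grey. Dusp1 and Dusp10 are highest on the poly I:C arrays and lowest on the PAM arrays, whereas Dusp4, Map3k5 and Map4k4 are highest with PAM and lowest with poly I:C.

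All 3 measured MAP4 kinase genes, at the entry to the cascade, fell with poly I:C, and with PAM 1 fell and 1 rose. Over all genes 30.4% passed with poly I:C and 25% with PAM. The tiers also differ in their share of bright genes, which passed more often. Bright were 2 of 3 Map4k, 8 of 18 Map3k, 5 of 6 Map2k, 4 of 11 Mapk, 3 of 3 Mapkapk and 8 of 24 Dusp genes. The part of probe level in the tier counts was not tested. Map4k1 encodes HPK1, a kinase of blood cells that restrains lymphocyte receptor signalling. It stood at 0.05 and -0.05 on the poly I:C arrays, at -0.31 and -0.26 on the PAM arrays and at 1.47 and 1.54 on the control arrays. Both ligand groups thus lay well below both controls. Map4k1 was lower by 2.84-fold with poly I:C (-1.50 ± 0.07, adjusted p = 3.61e-07, limma) and by 3.45-fold with PAM (-1.79 ± 0.07, adjusted p = 1.58e-07, limma). It also passed between the ligands (0.28 ± 0.07, adjusted p = 0.012, limma), but that call ended without poly I:C replicate 1 (adjusted p = 0.0931, limma) and without PAM replicate 1 (adjusted p = 0.0869, limma). Map4k4, a STE20-type kinase that feeds the JNK branch, stood at -0.34 and -0.34 with poly I:C, at 0.67 and 0.77 with PAM and at -0.02 and 0.02 in control. Its poly I:C arrays were below and its PAM arrays above both controls. The differences were -0.34 ± 0.07 with poly I:C (adjusted p = 0.00372, limma), 0.72 ± 0.07 with PAM (adjusted p = 4.75e-05, limma) and -1.06 ± 0.07 between the ligands (adjusted p = 2.88e-06, limma). Map4k5, a related germinal centre kinase, fell with poly I:C (-0.81 ± 0.09, adjusted p = 0.000155, limma) and differed by 0.13 ± 0.09 with PAM without passing, where the arrays overlapped.

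Of the 18 MAP3 kinase genes, 8 fell and 1 rose with poly I:C, and 4 fell and 2 rose with PAM. These are 50% and 33.3% of the tier, beside 30.4% and 25% of all genes. Map3k5, which encodes the oxidative stress kinase ASK1, stood at -0.50 and -0.50 with poly I:C, at 1.64 and 1.62 with PAM and at -0.12 and 0.12 in control. The 3 groups were fully apart. Map3k5 was 3.1-fold higher with PAM than in control (1.63 ± 0.09, adjusted p = 1.11e-06, limma), lower with poly I:C than in control (-0.50 ± 0.09, adjusted p = 0.00169, limma) and 4.39-fold lower under poly I:C than under PAM (-2.13 ± 0.09, adjusted p = 1.54e-07, limma). Map3k6 encodes ASK2, a partner of ASK1. It rose with PAM (0.39 ± 0.07, adjusted p = 0.0035, limma) and was lower under poly I:C than under PAM (-0.61 ± 0.07, adjusted p = 0.00018, limma). Its small decrease with poly I:C (-0.22 ± 0.07, adjusted p = 0.0463, limma) ended without control replicate 1 (adjusted p = 0.0505), control replicate 2 (0.159), poly I:C replicate 2 (0.277), or either PAM replicate (0.0776).

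Map3k1 and Map3k20 fell with both ligands. Map3k1 encodes MEKK1, which acts on JNK and ERK and is also a ubiquitin ligase. It stood at 0.11 and -0.11 with poly I:C, at -0.49 and -0.43 with PAM and at 0.59 and 0.75 in control. Map3k20 encodes ZAK, the kinase of the ribotoxic stress response, and stood at 0.09 and -0.09 with poly I:C, at -0.55 and -0.30 with PAM and at 0.65 and 0.70 in control. In both genes control arrays were highest and PAM arrays lowest, with no overlap. Map3k1 differed from control by -0.67 ± 0.09 with poly I:C (adjusted p = 0.00039, limma) and by -1.14 ± 0.09 with PAM (adjusted p = 1.62e-05, limma), and the ligands differed too (0.46 ± 0.09, adjusted p = 0.00383, limma). Map3k20 differed by -0.68 ± 0.10 with poly I:C (adjusted p = 0.000605, limma) and by -1.10 ± 0.10 with PAM (adjusted p = 3.25e-05, limma). Its difference between the ligands (0.42 ± 0.10, adjusted p = 0.00918, limma) ended without poly I:C replicate 1 (adjusted p = 0.09) and without PAM replicate 1 (0.0786). Map3k9, a mixed-lineage kinase gene, fell by similar amounts, with -0.60 ± 0.08 for poly I:C (adjusted p = 0.000285, limma) and -0.52 ± 0.08 for PAM (adjusted p = 0.00084, limma).

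The MAP3 kinases best known for Toll-like receptor signalling did not pass. Map3k7, which encodes TAK1, was at -0.05 and -0.24 with poly I:C, at 0.01 and 0.12 with PAM and at -0.01 and 0.03 in control. It differed from control by -0.16 ± 0.08 with poly I:C (adjusted p = 0.205, limma) and by 0.05 ± 0.08 with PAM (adjusted p = 0.737, limma). Map3k8, which encodes Tpl2, the kinase upstream of MEK1 and ERK, was at -0.13 and -0.13 with poly I:C, at 0.01 and 0.09 with PAM and at 0.01 and -0.01 in control. Its differences were -0.13 ± 0.07 with poly I:C (adjusted p = 0.193, limma) and 0.05 ± 0.07 with PAM (adjusted p = 0.69, limma). Map3k14, which encodes NIK of the noncanonical NF-kB route, was at 0.02 and 0.0016 with poly I:C, at -0.0016 and 0.03 with PAM and at -0.19 and -0.02 in control, and its differences were 0.11 ± 0.07 with poly I:C and 0.12 ± 0.07 with PAM. Small calls made up the rest. Map3k2 (MEKK2) differed by -0.29 with poly I:C and -0.26 with PAM, Map3k12 (DLK) by -0.35, Map3k15 (ASK3) by -0.32 and Map3k10 (MLK2) by 0.26 with poly I:C. Each of these calls ended in at least 1 fit without 1 array: Map3k2 with poly I:C without control replicate 2 (adjusted p = 0.0683, limma) or poly I:C replicate 2 (0.089), and with PAM without control replicate 2 (0.117), PAM replicate 1 (0.119) or PAM replicate 2 (0.105). Map3k12 lost its call without poly I:C replicate 2 (0.0838), Map3k15 without control replicate 1 (0.0828) or poly I:C replicate 2 (0.143), and Map3k10 without control replicate 2 (0.132), poly I:C replicate 1 (0.141) or poly I:C replicate 2 (0.0685).

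**Figure D2:**
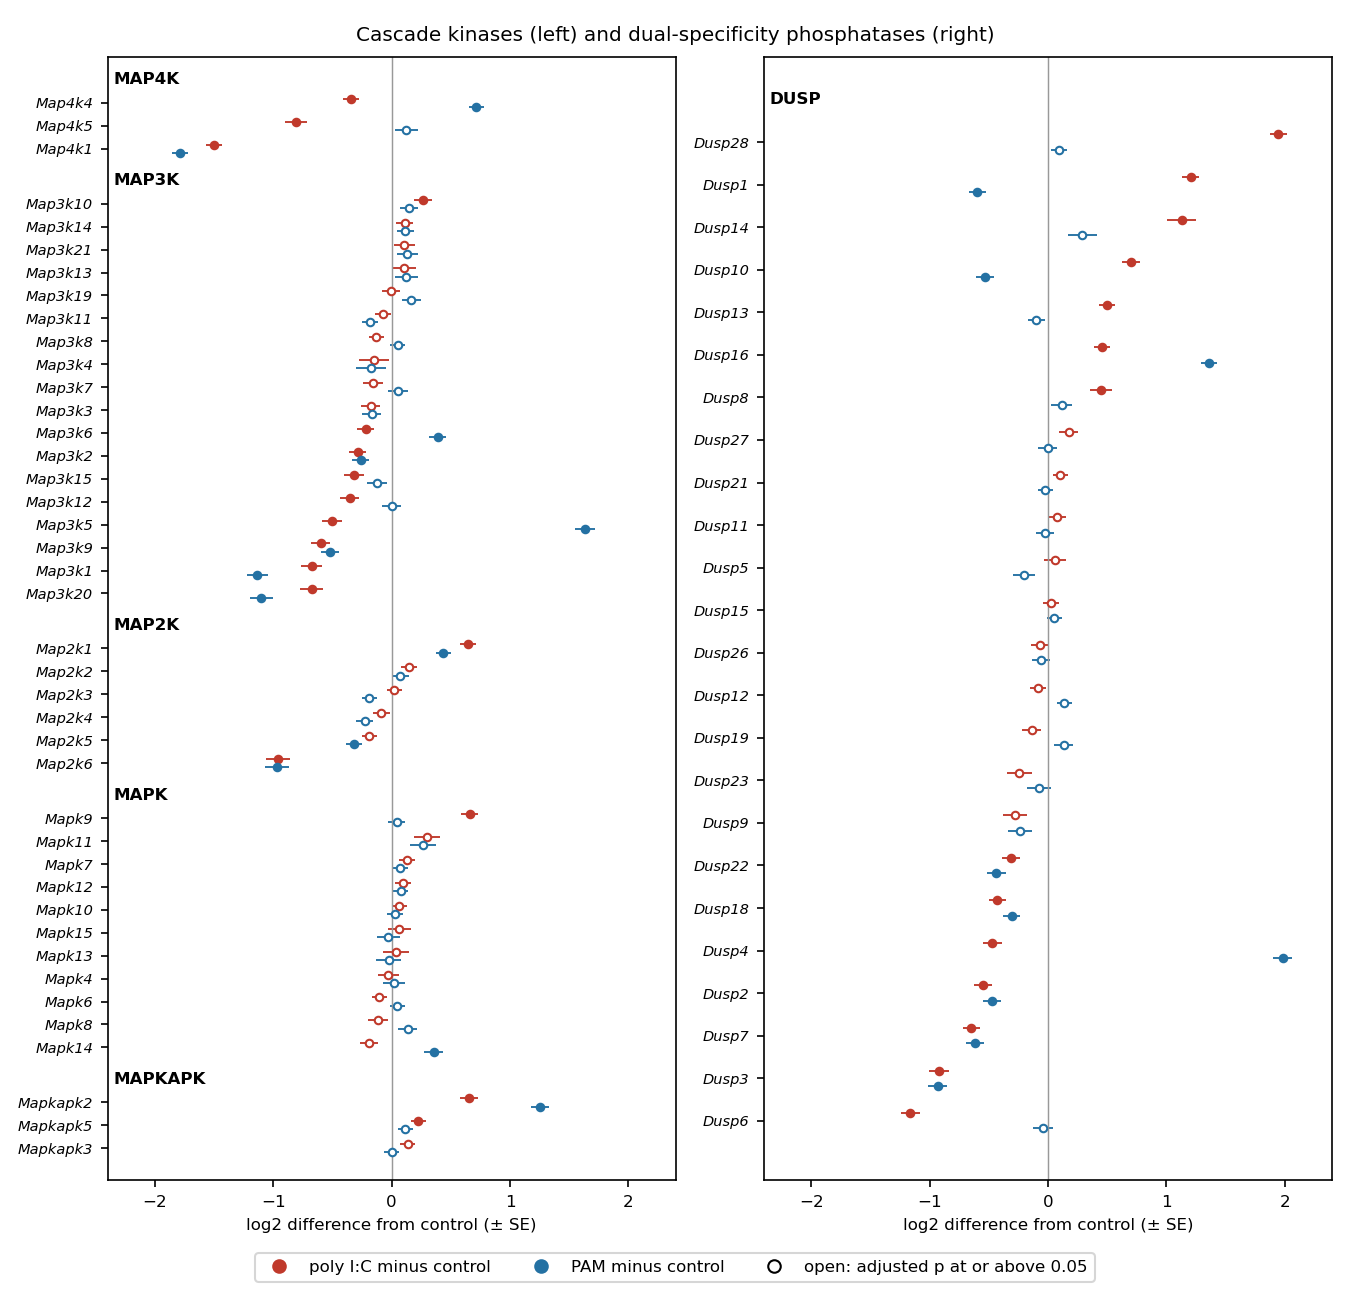
Log2 difference from control (± SE, n = 2 arrays per group) of all 65 members, with the kinase tiers on the left and the dual-specificity phosphatases on the right, red for poly I:C and blue for PAM. Filled points passed an adjusted p of 0.05 and open points did not; the Mapk tier holds 1 filled point per ligand, Mapk9 for poly I:C and Mapk14 for PAM.

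In the MAP2 kinase tier, 1 of 6 genes rose and 1 fell with poly I:C, and 1 rose and 2 fell with PAM. These are 33.3% and 50% of the tier, beside 30.4% and 25% of all genes. Map2k1, which encodes the ERK activator MEK1, stood at 0.18 and 0.24 with poly I:C, at 0.01 and -0.01 with PAM and at -0.47 and -0.41 in control. It rose with both, by 0.65 ± 0.07 with poly I:C (adjusted p = 6.51e-05, limma) and by 0.44 ± 0.07 with PAM (adjusted p = 0.000975, limma). Its close relative Map2k2 (MEK2) read 0.13 and 0.01 with poly I:C, -0.0010 and 0.0010 with PAM and -0.06 and -0.09 in control, and did not pass (0.15 ± 0.07 with poly I:C and 0.07 ± 0.07 with PAM). Map2k6 and Map2k3 encode the p38 activators MKK6 and MKK3. Map2k6 stood at 0.01 and -0.03 with poly I:C, at -0.02 and -0.01 with PAM and at 0.79 and 1.11 in control, so that both ligand groups lay below both controls. It was 1.95-fold lower with poly I:C (-0.96 ± 0.10, adjusted p = 8.4e-05, limma) and 1.95-fold lower with PAM (-0.97 ± 0.10, adjusted p = 9.88e-05, limma), and the difference between the ligands was 0.0056 ± 0.10. Map2k3 was at 0.08 and -0.01 with poly I:C, at -0.18 and -0.17 with PAM and at 0.01 and 0.01 in control, and differed from control by 0.02 ± 0.07 with poly I:C and -0.19 ± 0.07 with PAM without passing. Map2k4 (MKK4), which activates JNK and p38, read 0.06 and -0.03 with poly I:C, -0.13 and -0.13 with PAM and 0.03 and 0.17 in control, and missed the threshold with PAM (-0.23 ± 0.07, adjusted p = 0.0509, limma). Map2k5 (MEK5), the activator of ERK5, fell slightly with PAM (-0.32 ± 0.06, adjusted p = 0.00585, limma), a call that ended without PAM replicate 1 (adjusted p = 0.0541). Between the ligands Map2k1 and Map2k3 each passed at 0.21 ± 0.07 and each lost the call in all 4 fits without 1 ligand array, with adjusted p from 0.0817 (without poly I:C replicate 1) to 0.194 (without poly I:C replicate 2) for Map2k1 and from 0.0634 (without poly I:C replicate 2) to 0.213 (without poly I:C replicate 1) for Map2k3.

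Of the 11 genes of the MAP kinases themselves, 1 passed with each ligand (9.09%, beside 30.4% of all genes with poly I:C and 25% with PAM). Only 4 of the 11 were bright, and bright genes passed more often. Mapk9, which encodes JNK2, stood at 0.60 and 0.58 with poly I:C, at -0.06 and 0.0028 with PAM and at -0.15 and -0.0028 in control. Its poly I:C arrays were above all others, and PAM and control overlapped. It rose with poly I:C against control (0.66 ± 0.07, adjusted p = 0.000112, limma) and was higher than with PAM (0.62 ± 0.07, adjusted p = 0.000174, limma). Mapk8, which encodes JNK1, stood at -0.09 and -0.18 with poly I:C, at 0.14 and 0.10 with PAM and at -0.12 and 0.09 in control, and did not pass against control (-0.12 ± 0.08 with poly I:C and 0.14 ± 0.08 with PAM). Mapk14, which encodes p38 alpha, stood at -0.13 and -0.25 with poly I:C, at 0.27 and 0.44 with PAM and at 0.02 and -0.02 in control. It was lower under poly I:C than under PAM (-0.55 ± 0.08, adjusted p = 0.000702, limma). It rose with PAM against control (0.36 ± 0.08, adjusted p = 0.01, limma), a call that ended without PAM replicate 2 (adjusted p = 0.0916), and differed by -0.19 ± 0.08 with poly I:C without passing. The other members of this tier lay between -0.11 (Mapk6, ERK3) and 0.30 (Mapk11, p38 beta) with poly I:C and between -0.03 (Mapk15) and 0.26 (Mapk11) with PAM.

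Below them, Mapkapk2 rose with both ligands and more with PAM. It encodes MK2, the p38 substrate kinase that acts on tristetraprolin and so on the life of cytokine transcripts. Mapkapk2 stood at -0.07 and 0.07 with poly I:C, at 0.65 and 0.56 with PAM and at -0.67 and -0.63 in control, and the groups did not overlap. It was 1.57-fold higher than control with poly I:C (0.65 ± 0.07, adjusted p = 0.000144, limma) and 2.39-fold higher with PAM (1.26 ± 0.07, adjusted p = 2.48e-06, limma). The ligands differed by -0.60 ± 0.07 (adjusted p = 0.000249, limma). Its nearest relative Mapkapk3 (MK3) was at 0.12 and 0.09 with poly I:C, at 0.01 and -0.07 with PAM and at -0.05 and -0.01 in control, and did not pass (0.14 ± 0.07 with poly I:C, adjusted p = 0.171, limma). Mapkapk5 (PRAK) rose slightly with poly I:C (0.22 ± 0.06, adjusted p = 0.0266, limma), and the call ended without control replicate 2 (adjusted p = 0.103), poly I:C replicate 1 (0.106) or poly I:C replicate 2 (0.104).

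The phosphatases held the widest differences. Of 24 Dusp genes 7 rose and 7 fell with poly I:C (58.3%), and 2 rose and 7 fell with PAM (37.5%). Over all genes 30.4% and 25% passed. The 10 MAP kinase phosphatases proper gave 4 higher and 4 lower with poly I:C (80%) and 2 higher and 4 lower with PAM (60%). The 14 other Dusp genes gave 3 higher and 3 lower with poly I:C (42.9%). With PAM they gave 0 higher and 3 lower by limma (21.4%), where 1 more, Dusp14, was higher at an unadjusted p of 0.0447. The start regions of 4 of these genes are printed here. They are the Dusp genes with a change of at least 2-fold for which a sequence at the outermost start was at hand. Dusp1 and Dusp10 were higher with poly I:C and lower with PAM than control, Dusp28 was higher with poly I:C, and Dusp6 lower with poly I:C. Dusp4, Dusp16 and Dusp14 also changed at least 2-fold but had no such sequence, so genes raised most by PAM are missing here. Each line holds the 250 bases before the gene's outermost RefSeq start (GRCm38.p6), 5′ to 3′ on the gene's strand, and capitals mark a full cyclic AMP response element, TGACGTCA.
Dusp1 (chr17:26508473-26508722, minus strand): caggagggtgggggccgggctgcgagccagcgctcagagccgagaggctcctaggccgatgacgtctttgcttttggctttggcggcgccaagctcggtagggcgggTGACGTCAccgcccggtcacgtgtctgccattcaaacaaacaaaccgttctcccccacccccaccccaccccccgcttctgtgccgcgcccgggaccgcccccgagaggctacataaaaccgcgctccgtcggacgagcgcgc
Dusp10 (chr1:184034131-184034380, plus strand): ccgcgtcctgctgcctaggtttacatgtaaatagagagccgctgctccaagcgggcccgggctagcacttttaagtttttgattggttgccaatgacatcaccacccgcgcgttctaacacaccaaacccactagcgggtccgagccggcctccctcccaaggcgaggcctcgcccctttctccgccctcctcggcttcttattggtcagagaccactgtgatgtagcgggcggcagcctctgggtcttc
Dusp28 (chr1:92906739-92906988, plus strand): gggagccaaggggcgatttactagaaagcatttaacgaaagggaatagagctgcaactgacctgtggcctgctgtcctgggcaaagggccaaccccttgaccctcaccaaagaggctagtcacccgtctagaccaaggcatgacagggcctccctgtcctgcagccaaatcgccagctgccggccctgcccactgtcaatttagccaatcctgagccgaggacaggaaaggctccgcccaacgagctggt
Dusp6 (chr10:99262981-99263230, plus strand): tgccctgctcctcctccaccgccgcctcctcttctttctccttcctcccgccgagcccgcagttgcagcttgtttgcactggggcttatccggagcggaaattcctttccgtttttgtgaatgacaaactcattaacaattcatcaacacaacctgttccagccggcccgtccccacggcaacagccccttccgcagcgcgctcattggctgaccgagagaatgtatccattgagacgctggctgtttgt

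Promoter windows were found for 52 of the 65 members, 67 windows in all since a gene can have several starts, and 7 motifs were searched on both strands in the 250 bases before each start. The full element TGACGTCA lay in 3 of the 67 windows, those of Dusp1, Dusp8 and Mapk10, and in 1.55% of all 32851 windows of the RefSeq table. In Dusp1 it spanned bases -143 to -136 from the start, and Dusp8 held it at -107 to -100 and again at -63 to -56. Its first part TGACG, which every full element also contains, lay in 20 of the 67 windows (29.9%) and in 17.8% of all. An interferon-type element, 2 GAAA repeats with any 2 bases between them, lay in 3 windows (4.48%, and 2.98% of all), TTCNNNGAA in 3 (7.02% of all), TGANTCA in 3 (6.75% of all), the kappaB motif in 3 (3.9% of all) and the CArG box in 1, that of Dusp5 (1.47% of all). The windows of Dusp10, Dusp28 and Dusp6 held no match to the 7 motifs, which says only that these letters are not in those stretches. A match is a stretch of letters, not a shown binding site.

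Dusp1 and Dusp10 showed the pattern the series was set up to look for, raised by the TLR3 ligand and lowered by the TLR2 ligand. Over all genes 12.1% were higher with poly I:C and 14% lower with PAM. The share of all genes with both was not counted, so whether 2 of the 65 members is many cannot be told. Dusp1 encodes MKP-1, a nuclear phosphatase of p38 and JNK known to limit cytokine production in macrophages. It stood at 1.23 and 1.18 with poly I:C, at -0.66 and -0.53 with PAM and at -0.01 and 0.01 in control. The 3 groups were fully apart, with control between the ligands. Dusp1 was 2.31-fold higher with poly I:C than in control (1.21 ± 0.07, adjusted p = 1.86e-06, limma), 1.51-fold lower with PAM than in control (-0.60 ± 0.07, adjusted p = 0.000216, limma) and 3.49-fold higher under poly I:C than under PAM (1.80 ± 0.07, adjusted p = 1.32e-07, limma). Dusp10 encodes MKP-5, which acts on JNK and p38. It stood at 0.74 and 0.66 with poly I:C, at -0.51 and -0.55 with PAM and at -0.08 and 0.08 in control, again with control in between. Its differences were 0.70 ± 0.08 with poly I:C (adjusted p = 0.000105, limma), -0.53 ± 0.08 with PAM (adjusted p = 0.000773, limma) and 1.23 ± 0.08 between the ligands (adjusted p = 2.55e-06, limma). Both comparisons with control use the same 2 control arrays, so the differences of a gene with poly I:C and with PAM are not independent of each other, whereas the difference between the ligands does not use those arrays' means.

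Dusp4 had the opposite order. It encodes MKP-2, a nuclear phosphatase of ERK, JNK and p38, and stood at -0.56 and -0.38 with poly I:C, at 1.96 and 2.00 with PAM and at -0.04 and 0.04 in control. Its PAM arrays were above and its poly I:C arrays below both controls. Dusp4 was 3.95-fold higher with PAM than in control (1.98 ± 0.08, adjusted p = 2.1e-07, limma), lower with poly I:C than in control (-0.47 ± 0.08, adjusted p = 0.00165, limma) and 5.47-fold lower under poly I:C than under PAM (-2.45 ± 0.08, adjusted p = 4.72e-08, limma). That was the largest difference between the ligands among the 65 members. Dusp16 encodes MKP-7, a JNK phosphatase, and stood at -0.03 and 0.03 with poly I:C, at 0.86 and 0.95 with PAM and at -0.48 and -0.43 in control. It rose with both, by 0.46 ± 0.07 with poly I:C (adjusted p = 0.000799, limma) and by 1.36 ± 0.07 with PAM (adjusted p = 8.9e-07, limma), and was lower under poly I:C than under PAM (-0.90 ± 0.07, adjusted p = 9.68e-06, limma).

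Dusp6, Dusp7 and Dusp2 fell with poly I:C. Dusp6, which encodes the cytoplasmic ERK phosphatase MKP-3, stood at -1.02 and -1.16 with poly I:C, at 0.01 and 0.06 with PAM and at -0.01 and 0.17 in control. Its poly I:C arrays lay below all others, and its PAM and control arrays overlapped. Dusp6 was 2.24-fold lower with poly I:C than in control (-1.16 ± 0.08, adjusted p = 7.05e-06, limma) and 2.18-fold lower than with PAM (-1.12 ± 0.08, adjusted p = 8.17e-06, limma), and differed by -0.04 ± 0.08 with PAM without passing (adjusted p = 0.813, limma). Dusp7, its cytoplasmic relative, fell with both ligands, by -0.65 ± 0.07 with poly I:C (adjusted p = 0.000148, limma) and -0.62 ± 0.07 with PAM (adjusted p = 0.000246, limma). Dusp2, a nuclear phosphatase gene of activated immune cells, stood at -0.19 and -0.01 with poly I:C, at -0.05 and 0.01 with PAM and at 0.47 and 0.44 in control. It was lower with poly I:C (-0.55 ± 0.08, adjusted p = 0.000524, limma) and with PAM (-0.48 ± 0.08, adjusted p = 0.00157, limma), and the ligands differed by -0.07 ± 0.08 with overlapping arrays. Dusp8, a phosphatase of JNK and p38, rose with poly I:C (0.45 ± 0.09, adjusted p = 0.00437, limma), a call that ended without poly I:C replicate 2 (adjusted p = 0.0509). The 2 MAP kinase phosphatase genes that passed with neither ligand were Dusp5 (0.06 ± 0.09 with poly I:C and -0.20 ± 0.09 with PAM) and Dusp9 (-0.28 ± 0.10 with poly I:C and -0.24 ± 0.10 with PAM).

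Among the other, mostly small, dual-specificity phosphatases Dusp28 changed most. Dusp28 stood at 1.81 and 1.89 with poly I:C, at -0.01 and 0.01 with PAM and at -0.04 and -0.15 in control. The poly I:C arrays stood far above the rest. It was 3.85-fold higher with poly I:C than in control (1.95 ± 0.07, adjusted p = 6.98e-08, limma) and 3.61-fold higher than with PAM (1.85 ± 0.07, adjusted p = 1e-07, limma), and differed by 0.09 ± 0.07 with PAM (adjusted p = 0.419, limma). Dusp14, which encodes MKP-6, stood at 0.63 and 1.04 with poly I:C, at -0.09 and 0.09 with PAM and at -0.31 and -0.27 in control. Its poly I:C arrays were the highest although they lay far from each other. Dusp14 was 2.19-fold higher with poly I:C than in control (1.13 ± 0.12, adjusted p = 0.000116, limma) and higher than with PAM (0.84 ± 0.12, adjusted p = 0.000782, limma). Dusp13 rose with poly I:C (0.50 ± 0.07, adjusted p = 0.000483, limma) and differed by -0.10 ± 0.07 with PAM. Dusp3, which encodes VHR, a phosphatase of ERK and JNK, was lower with both, at -0.92 ± 0.08 with poly I:C (adjusted p = 2.85e-05, limma) and -0.93 ± 0.08 with PAM (adjusted p = 3.15e-05, limma). Its difference between the ligands was 0.01 ± 0.08. Dusp18 and Dusp22 were also lower with both: Dusp18 by -0.43 with poly I:C and -0.30 with PAM, and Dusp22 by -0.31 and -0.44. The call of Dusp18 with PAM ended without PAM replicate 2 (adjusted p = 0.12, limma), and that of Dusp22 with poly I:C without control replicate 2 (0.0577) or poly I:C replicate 2 (0.115). The other 8 Dusp genes outside the MAP kinase phosphatases passed with neither ligand against control and lay between -0.24 (Dusp23) and 0.17 (Dusp27) with poly I:C.

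The direct comparison of the ligands, at their doses of 2 and 1 ug/mL, is the test of whether their effects differed. Phosphatase genes stood at both ends. Dusp28, Dusp1, Dusp10 and Dusp14 led the 12 members above PAM in the poly I:C arrays, followed by Mapk9, Dusp13, Map3k1, Map3k20, Dusp8, Map4k1, Map2k1 and Map2k3. Below PAM in the poly I:C arrays were Dusp4, Map3k5, Dusp6, Map4k4, Map4k5, Dusp16, Map3k6, Mapkapk2, Mapk14, Map3k12, Dusp19 and Dusp12. Several of the smaller calls among these did not hold when 1 array was left out. That of Dusp8 (0.33) ended without poly I:C replicate 2 (adjusted p = 0.155, limma) or PAM replicate 2 (0.167), and that of Map3k12 (-0.36) without poly I:C replicate 2 (0.084) or PAM replicate 2 (0.0741). Dusp19 (-0.27) and Dusp12 (-0.22) lost theirs without any 1 of the 4 ligand arrays, with adjusted p from 0.0872 (without poly I:C replicate 2) to 0.159 (without poly I:C replicate 1) for Dusp19 and from 0.0811 (without PAM replicate 1) to 0.206 (without PAM replicate 2) for Dusp12. Map4k1, Map3k20, Map2k1 and Map2k3 are described with their tiers. The 2 probes of Map3k12 did not move together: 1 read -0.52 and -0.57 and the other 0.05 and -0.18 on the poly I:C arrays. Those of Dusp12 differed in size: 1 read -0.16 and -0.31 with poly I:C and 0.08 and 0.19 with PAM, and the other -0.04 and -0.01 with poly I:C and 0.05 and 0.07 with PAM.

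**Figure D3:**
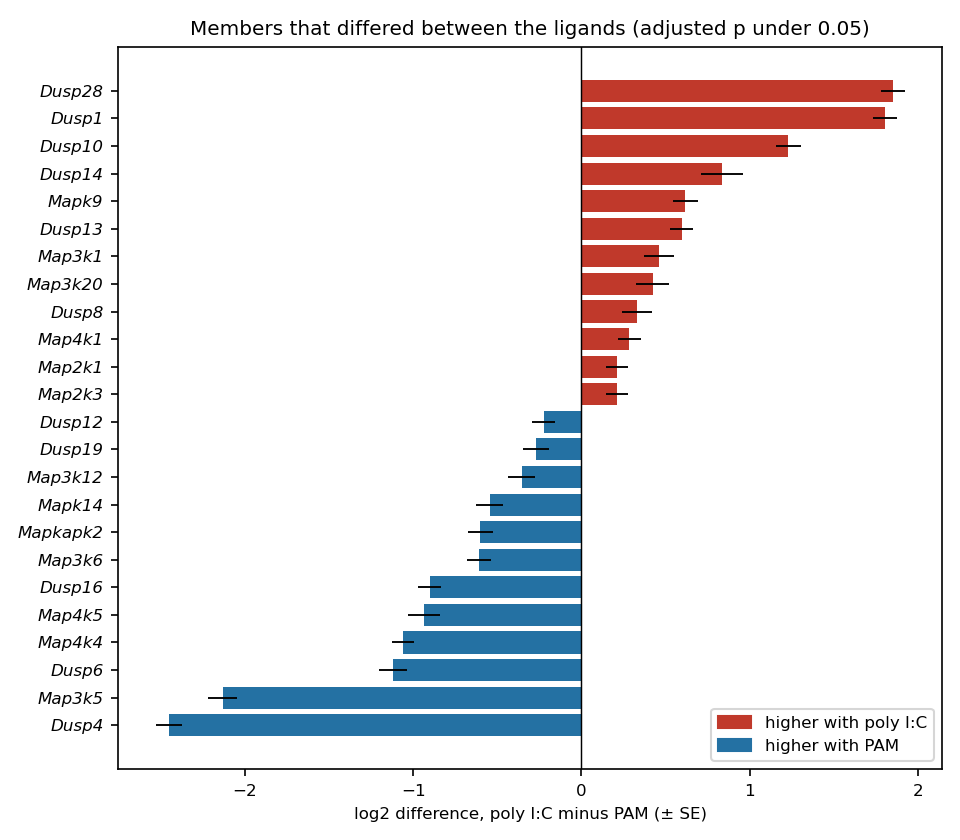
Log2 difference of poly I:C minus PAM (bars, ± SE, n = 2 arrays per group) for the 24 members past an adjusted p of 0.05. Bars to the right, in red, are higher with poly I:C, led by Dusp28 at 1.85 and Dusp1 at 1.80; bars to the left, in blue, are higher with PAM, led by Dusp4 at -2.45 and Map3k5 at -2.13.

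Genes around the cascade were counted in 6 lists. Of 15 measured genes of Ras, Raf and their exchange factors, 1 rose and 8 fell with poly I:C (median -0.23) and 3 rose and 5 fell with PAM (median -0.13). Rasgrp1, an exchange factor that activates Ras, rose by 3.50 ± 0.13 with poly I:C (adjusted p = 1.05e-07, limma) and 4.51 ± 0.13 with PAM (adjusted p = 3.16e-08, limma), while its relative Rasgrp3 fell (-3.03 ± 0.13 with poly I:C and -2.80 ± 0.13 with PAM). Of 5 measured RSK, MSK and MNK kinase genes, which act below ERK and p38, 4 fell with poly I:C and 3 with PAM. Rps6ka3 (RSK2) fell by 1.22 on the log2 scale with poly I:C and by 0.60 with PAM, and Mknk2, which acts on the translation factor eIF4E, by 0.37 with poly I:C and by 1.33 with PAM. Of 15 scaffold and partner genes 2 rose and 4 fell with poly I:C and 1 rose and 4 fell with PAM, with the JNK scaffold gene Spag9 lowest with both (-0.44 with poly I:C and -0.67 with PAM). Of 15 STE20-type kinase genes under other names 2 rose and 7 fell with poly I:C and 6 fell with PAM, among them Stk39 (1.13 with poly I:C) and Taok3 (-1.09 with PAM).

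Of 24 inhibitors other than Dusp genes, 1 rose and 12 fell with poly I:C (median -0.23) and 2 rose and 6 fell with PAM (median -0.02). Dok2, an adaptor that restrains Ras signalling, fell with poly I:C (-1.63) and with PAM (-0.59), and Rasa1, a Ras GTPase-activating protein gene, likewise (-1.13 and -0.91). Spred2, an inhibitor of Raf activation, fell with poly I:C (-0.74) and differed by 0.06 with PAM. The list of nuclear and RNA-binding substrates also took in immediate early genes such as Egr2. Of its 23 measured genes 3 rose and 12 fell with poly I:C (median -0.27) and 3 rose and 11 fell with PAM (median -0.19). The immediate early gene Egr2 was lower with both (-2.57 ± 0.09 with poly I:C and -1.79 ± 0.09 with PAM), as was Myc (-2.37 and -1.33). Ier3 rose with both (0.73 with poly I:C and 2.72 with PAM), as did Ets2 (0.69 with poly I:C and 2.10 with PAM), and Ddit3, the stress factor CHOP, rose with poly I:C (2.05) and differed by -0.19 with PAM without passing. These lists were counted beside 30.4% of all genes called with poly I:C and 25% with PAM, and no set test was run.

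**Figure D4:**
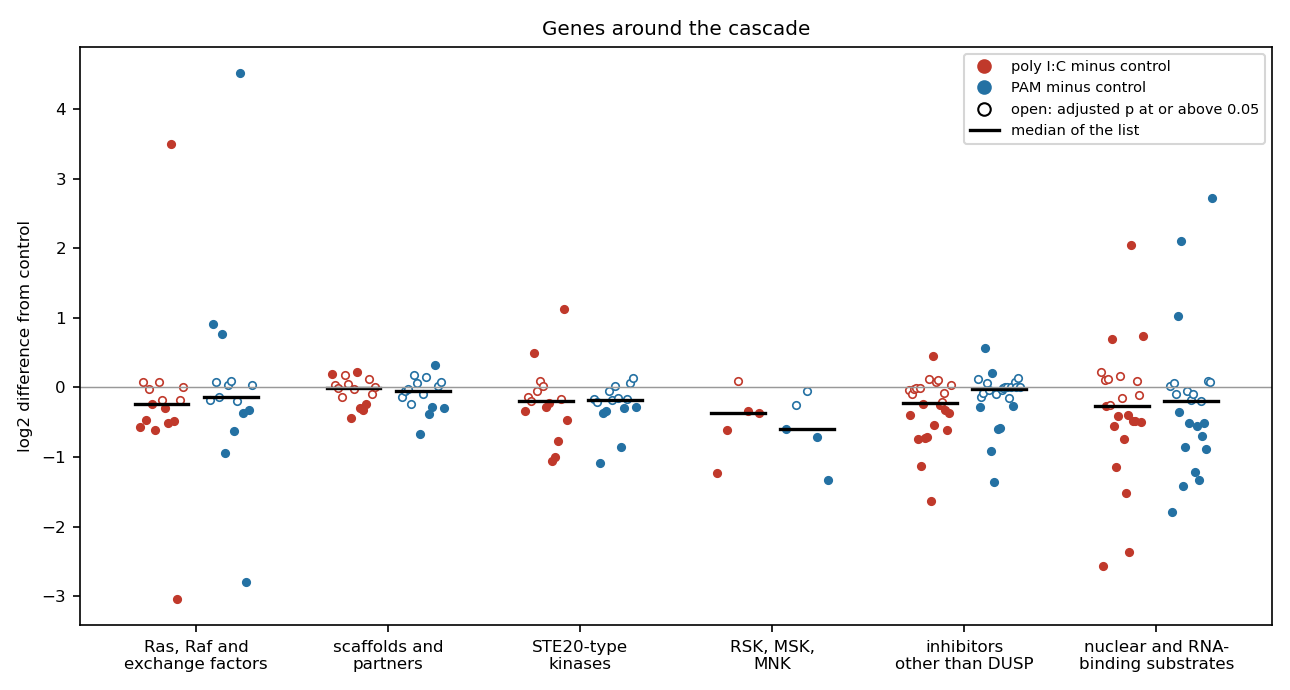
Log2 difference from control of each measured gene (points) in 6 lists of genes around the cascade, red for poly I:C and blue for PAM, filled where the adjusted p was under 0.05, with the median of each list as a black bar. Rasgrp1 (3.50 and 4.51) and Rasgrp3 (-3.03 and -2.80) stand farthest from 0, and the poly I:C medians of the 6 lists lie between -0.37 and -0.01.

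The cells were checked against markers. All 8 measured macrophage markers, among them Adgre1, Csf1r and Itgam, lay at 8 or above on all arrays, against 0 of 8 neutrophil, 0 of 6 mast cell, 0 of 5 eosinophil, 1 of 6 B cell, 1 of 7 T and NK cell and 4 of 8 mesothelial and fibroblast markers. The macrophage markers moved too, and not together. With poly I:C 3 were higher, the Fc receptor gene Fcgr1 (2.65), Spi1 (0.51) and Mertk (0.22), and 2 lower, Itgam (-1.49) and Adgre1 (-0.97). With PAM 2 were higher, Adgre1 (1.38) and Csf1r (0.74), and 3 lower, Fcgr1 (-1.72), Mertk (-1.23) and Itgam (-0.49). The macrophage sum lay between 1.11 and 1.35 with poly I:C, between -0.98 and -0.88 with PAM and between 0.27 and 0.70 in control. Fcgr1 weighed most in it, and Adgre1 had the opposite order. Apart from whether it lay at 8 or above on all arrays, no marker's level can be read in centred values. A marker that was not expressed cannot be told. Of the 8 neutrophil markers S100a8 (2.04) and Camp (0.64) rose with PAM. The other 6 did not pass with PAM and lay between -0.13 (S100a9) and 0.08 (Retnlg). The list's summed value lay between -0.44 and 0.13 with poly I:C, between 2.17 and 2.49 with PAM and between -0.86 and 0.20 in control. Its height with PAM thus came mainly from S100a8 and Camp. The mesothelial and fibroblast sum lay between -1.27 and -0.92 with poly I:C, between 1.26 and 1.33 with PAM and between -1.40 and 0.74 in control, so the 2 control arrays differed there. With poly I:C this list held 1 higher gene, Pdpn (0.92), and 3 lower, Col3a1 (-0.69), Upk3b (-0.40) and Col1a1 (-0.36). With PAM it held 2 higher, Pdpn (1.39) and Dcn (0.95), and 1 lower, Upk3b (-0.45). Msln, Wt1 and Krt19 passed with neither ligand. The B cell sum lay between -0.02 and 0.23 with poly I:C, between 0.10 and 1.07 with PAM and between -1.16 and -0.44 in control, with 2 of 6 markers higher with each ligand; Siglecf, 1 of the 5 eosinophil markers, was lower with both (-0.95 and -1.21). The T and NK cell sum lay between 0.41 and 0.54 with poly I:C, between -0.18 and 0.20 with PAM and between -0.66 and -0.09 in control. Its poly I:C arrays were above all others, but 0 of its 7 markers passed with either ligand. The eosinophil sum was 0.10 on both poly I:C arrays and lay between -0.53 and -0.24 with PAM and between 0.71 and 0.83 in control. That order came mainly from Siglecf. The other 4 eosinophil markers did not pass with either ligand. They lay between 0.02 and 0.13 with poly I:C and between -0.07 and 0.05 with PAM. The mast cell sums of the 3 groups overlapped. The part of these cells in the members' differences was not tested, and in bulk RNA fewer cells of a type and less RNA per cell cannot be told apart.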

How the data were processed

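Gene expression was measured on 6 Affymetrix arrays, 2 per group, from biotin-labelled cRNA, per the labels' protocols. The authors deposited 1 log2 value per probe and array, and every probe's median over the 6 arrays was 0 to within 5e-07, which shows that the deposited values had been centred per probe. For background correction, normalization and summarization the methods were not given in the sources used here; the log base was taken as 2. The number of arrays limits the precision. Of 28815 probes, 21780 carried 1 gene symbol, 1605 several and 5430 none. Values were averaged per gene over the first kind, which gave 19935 genes.

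One model with a mean per group was fitted to all 6 arrays with limma 3.58.1 in R 4.3.3 (lmFit and eBayes, without a trend; residual degrees of freedom 3, prior 5.68), with Benjamini-Hochberg adjustment over all genes within each of the 3 comparisons. Alternatives were a variance trend with and without robust fitting, recentred arrays, single probes, bright genes only, 4 arrays only, a replicate block, unadjusted p-values, a 2-fold minimum and leaving out each array. The members and gene lists were chosen with earlier results of these data known. Values on every array are given for the members past the threshold with at least 2-fold change in 1 or more comparisons and for a set of core kinases and phosphatases, and up to 4 called genes per list and comparison by size. Promoters are from RefSeq (GRCm38.p6), matched by symbol.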

Additional observations from a re-analysis of the deposited data

How the results depend on the processing

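Against control, 12 members passed upward and 19 downward with poly I:C, and 8 upward and 14 downward with PAM; between the ligands 12 passed each way. Among genes at 8 or above on all arrays alone, 6 members were higher with poly I:C than in control and 6 higher than with PAM. Requiring at least 2-fold left 3 higher and 2 lower with poly I:C, 4 higher and 3 lower with PAM, and 3 higher and 4 lower between the ligands; both settings keep fewer genes by construction. Leaving out each array gave 9 to 13 higher and 14 to 19 lower with poly I:C, 8 to 9 and 12 to 16 with PAM, and 8 to 13 and 9 to 13 between the ligands, with the lone array of a group taken to vary like the others. Apart from the 2-fold minimum, 57 of 77 called differences of members passed in each alternative fit that gave a value for them, and 20 were lost in at least 1, all 20 in a fit without 1 array and none above 0.45 on the log2 scale; no direction turned. The fit to bright genes gave values for the 30 members of that class only, and single probes were compared only for members with 1 probe. With the replicate number as a block the counts were 13 and 19 with poly I:C, 8 and 14 with PAM, and 10 and 12 between the ligands, and 3 member calls were lost. The numbers only name the samples: deviations of same-numbered arrays correlated at -0.07 between poly I:C and control, 0.15 between PAM and control and -0.01 between poly I:C and PAM. The cause of the lost calls was not tested.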
